A study of Mus musculus with 15 samples.

Results

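The genes described here belong to the integrated stress response, and they were Ddit3, Atf4, Atf3, Trib3, Chac1, Asns, Ddit4, Sesn2, Ppp1r15a and Xbp1. These 10 of 55536 genes in the deposited count table were found by symbol in GENCODE release M21. The set was chosen by gene-level counts, because Ddit3 fell without overlap between the groups. After scaling for library size, it was lower in every costimulated library than in every library primed with antigen alone. CD8+ T cells of OT-I mice, whose transgenic T cell receptor recognises the SIINFEKL peptide of ovalbumin, were transferred into C57BL/6J recipients. Recipients received the peptide with rat IgG (Ag) or the peptide with agonist anti-CD134 (OX40) and anti-CD137 (4-1BB) antibodies (Ag+Costim), and poly(A) RNA of donor cells sorted from spleen and lymph nodes was sequenced. The labels give collection on day 4, while the study's methods give a shorter time. Both groups therefore share the OT-I receptor, the transfer and the peptide. Per the methods, the OT-I donors were Rag1- or Rag2-deficient, mice of both sexes were used and the sources differ on their age. The labels list 15 libraries, 5 per group, and each was a biological replicate per the study. The 5 Ag and 5 Ag+Costim libraries were compared, and the Naive libraries were not analysed here.

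In this pathway, the kinases PERK, GCN2, PKR and HRI phosphorylate the translation factor eIF2 under stress of the endoplasmic reticulum, amino acid shortage, double-stranded RNA or haem shortage. General translation then slows while ATF4 mRNA, which carries upstream reading frames, is translated more. ATF4 drives genes of amino acid supply, and with lasting stress also Ddit3, which encodes the factor CHOP. Activated T cells take up amino acids and expand their secretory machinery during clonal growth, and targets of ATF4 are known to serve that growth.

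ATF4 binds DNA as a partner of C/EBP proteins at elements written TGATGNAA. In the RefSeq promoters of GRCm38.p6 (250 bases before and 50 after each start), this element stood on either strand in 4 of the 10 genes, Atf3, Chac1, Asns and Trib3, and in 4.51% of all 27025 genes with a promoter (3.97% of 32851 promoters). The cAMP response element TGACGTCA stood in 1 gene, Ppp1r15a, and in 2.03% of genes. The site TGACGTGG, known from XBP1 and ATF6 binding, was found in 0.714% of genes and in none of the 10. The windows of 30 bases around the upstream matches are shown because the stress response acts on its targets through such elements. Capitals mark the match, and the sequence is that of the gene's strand.
Atf3, chr1:191183425-191183454, minus strand: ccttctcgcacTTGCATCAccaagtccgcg
Chac1, chr2:119351038-119351067, plus strand: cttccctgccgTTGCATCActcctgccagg
Asns, chr6:7693214-7693243, minus strand: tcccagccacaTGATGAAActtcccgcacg
Ppp1r15a, chr7:45526269-45526298, minus strand: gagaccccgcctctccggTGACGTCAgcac
The element began 110 bases before the RefSeq start of Atf3, 193 before that of Chac1 and 23 before that of Asns, and the one of Ppp1r15a began 12 bases before its start. In GENCODE the first exon of Asns starts further upstream and contains the element. In Trib3 the match lay 15 to 22 bases after the RefSeq start. A match of these letters is a description and no evidence of binding. Of the 4 genes with the ATF4 element, Asns had a higher mean level in Ag+Costim than in Ag, and Atf3, Chac1 and Trib3 had lower means. The lower means of Atf3 and Chac1 depended on Ag replicate 3. Without that library their log2 fold changes were 0.44 and 0.77.

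The libraries held 59.6 to 639.1 M (mega) estimated counts, with the lowest total in Ag replicate 3. A count was present for 20714 to 51778 genes with Ag and for 28727 to 30340 with Ag+Costim, so Ag libraries were less alike. The Ag libraries were split, with 48058, 51778 and 40441 genes in replicates 1, 3 and 4 but 21779 and 20714 in replicates 2 and 5. The TMM scaling factors were 1.396, 1.212 and 1.247 in the former and 0.9071 and 0.8261 in the latter. The cause of this split and its part in the results below were not tested. The summed level of 12 cell cycle genes was 852 and 898 CPM (counts scaled to one library total) in Ag replicates 1 and 4. In the other Ag libraries it was 4310 to 7728 CPM, and in Ag+Costim 6862 to 8840 CPM. Summed CD8 T cell markers were 4139 to 7911 CPM with Ag and 5706 to 6693 CPM with Ag+Costim, so the markers of the labelled cell type were present throughout. Ag replicate 3 stood out by 353 CPM of B cell markers and 1103 CPM of erythroid markers. In the other Ag libraries these sums were at most 190 and 126 CPM, and in Ag+Costim at most 51.4 and 39.8 CPM. Natural killer cell markers summed to 2.92 to 23.7 CPM with Ag and 0.552 to 2.40 CPM with Ag+Costim. Of these 4 markers, 1 lay below Ag without overlap, as did 1.13% of all genes tested. No marker was at 0 in all libraries, and the part of other cells in the results below was not tested. In such bulk samples, fewer cells of a type and less RNA per cell cannot be told apart.

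Ddit3 was the only one of the 10 genes whose Ag and Ag+Costim libraries did not overlap. Ddit3 (ENSMUSG00000025408.15, chr10:127290774-127296288, plus strand, mm10) encodes CHOP, a transcription factor linked to cell death under lasting stress. Its level was 18.1, 11.8, 9.78, 21.5 and 11.5 CPM in Ag replicates 1 to 5, scaled with TMM factors. In Ag+Costim replicates 1 to 5 it was 8.52, 7.20, 7.06, 5.89 and 8.01 CPM. Every costimulated library lay below every antigen-only library, and replicates 1 and 4 were the highest of the Ag group. The means were 14.5 ± 4.997 CPM with Ag and 7.33 ± 1.01 CPM with Ag+Costim (SD, n = 5 each). The fitted log2 fold change was -0.99 (SE 0.233), given with no test because this difference chose the set. Without Ag replicates 1 and 4 it was -0.58. The groups still did not overlap, which the rule that chose Ddit3 all but fixed in advance. Of all 24262 genes tested, 1.13% lay below Ag without overlap and 4.48% above it, 5.60% in all, against 1 of the 10 genes. The boundary was narrow on the CPM scale, from 9.78 in the lowest Ag library to 8.52 in the highest Ag+Costim library. The gene nearest to the boundary outside it was Asns, higher in Ag+Costim in 23 of 25 pairs of libraries.

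**Figure D1:**
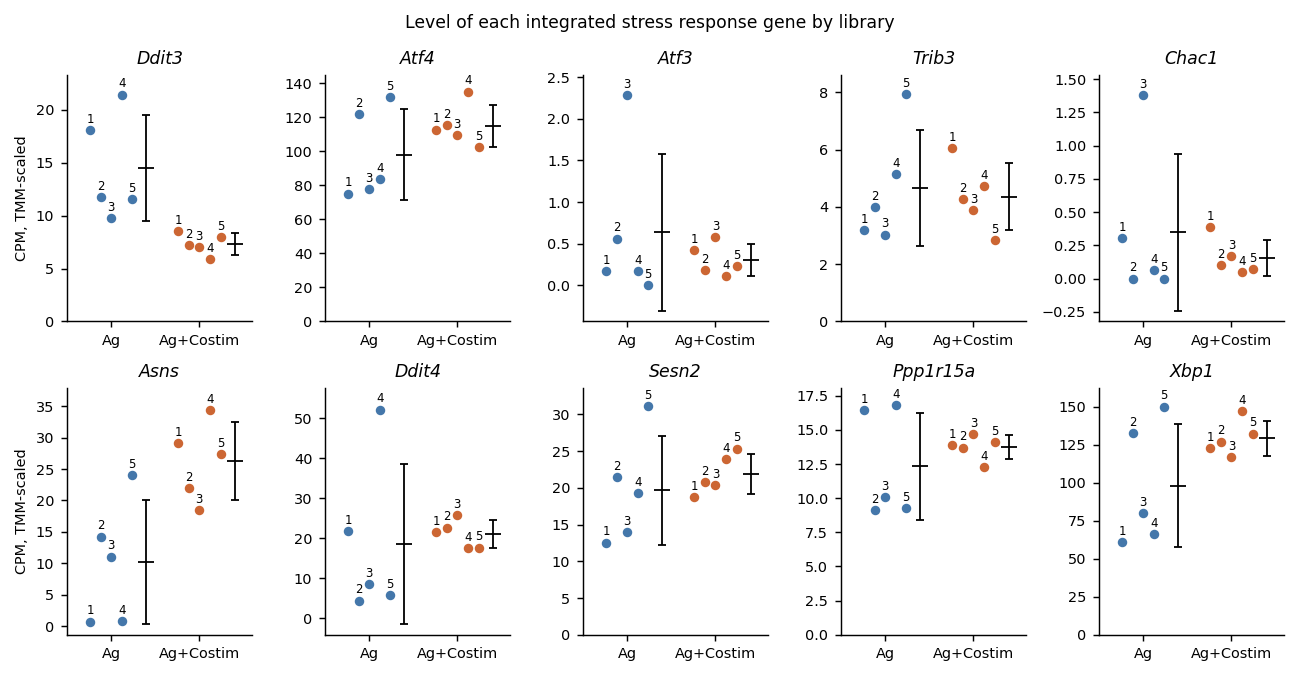
Level of each of the 10 genes in CPM (vertical axis, TMM-scaled) for Ag (blue) and Ag+Costim (orange) libraries, with replicate numbers at the points and the mean and SD as black bars. Ddit3 shows no overlap, with Ag libraries at 9.78 CPM or above and Ag+Costim libraries at 8.52 CPM or below, whereas the groups overlap in the other panels.

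Ddit3 shares 68 of its 1713 exonic bases with Mars, a gene on the opposite strand that encodes the methionyl-tRNA synthetase. The kit does not mark strand, so reads in these bases cannot be assigned. Mars was 45.3, 150, 107, 44.5 and 166 CPM with Ag and 172, 184, 175, 233 and 196 CPM with Ag+Costim. Mars was thus higher in every Ag+Costim library, the opposite direction to Ddit3. Ddit3 also shares 13 exonic bases with Gm4189, which had at most 101 counts in a library. A second identifier of the same symbol, ENSMUSG00000116429.1, was listed at 0 in all libraries.

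Relative to Atf4, Ddit3 was also lower after costimulation. Atf4 encodes the factor that acts upstream of Ddit3. There were 24.1, 9.64, 12.6, 25.6 and 8.75 Ddit3 counts per 100 Atf4 counts in Ag, and 7.55, 6.22, 6.45, 4.36 and 7.82 in Ag+Costim. These ratios did not overlap between the groups, although the distance between 8.75 and 7.82 was small. They carry the Ddit3 level that chose the set, so they are a description.

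The 5 genes whose log2 CPM over the 10 libraries was most like that of Ddit3, out of 8625 with a mean of at least 10 CPM, were Ctns, Malat1, Etfbkmt, Map3k2 and Ephx1. Their Pearson r values were 0.955, 0.953, 0.952, 0.949 and 0.947. In each of the 5, Ag replicates 1 and 4 were the highest of the 10 libraries, as for Ddit3. Malat1, a nuclear long noncoding RNA, was 2245 and 2321 CPM in those libraries and 340 ± 76.7 CPM in Ag+Costim (SD, n = 5). The 10 points share the 2 groups and the 2 Ag libraries with low cell cycle levels, so these r values are descriptions.

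Among the other regulators, Atf4 and Xbp1 were abundant. Per length, Atf4 had the highest level of the 10 genes at 98.0 TPM (counts per transcript length scaled to one total, mean over the libraries, range 83.3 to 118), followed by Xbp1 at 86.4 (66.5 to 107). Ddit3 followed at 21.3 TPM (10.1 to 49.6), Ddit4 at 19.6 (3.56 to 60.6) and Asns at 13.9 (0.939 to 25.9). Sesn2 and Ppp1r15a were at 9.43 (7.42 to 11.3) and 9.19 TPM (4.79 to 15.2), and Trib3 at 3.56 (2.17 to 5.18). Atf3 and Chac1 were lowest at 0.409 and 0.278 TPM, with libraries at 0. Neighbours in this order overlapped in range, except that all Xbp1 values lay above all Ddit3 values, and all Trib3 values above the highest Atf3 value of 2.15 TPM.

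Atf4 (chr15:80255184-80257541) was 75.2, 122, 77.7, 83.6 and 132 CPM with Ag and 113, 116, 109, 135 and 102 CPM with Ag+Costim. Ag replicates 2 and 5 were as high as the costimulated libraries, and the other Ag libraries were lower than all of them on this scale. In TPM the Ag libraries did not divide in this way, at 95.1, 100.1, 83.3, 98.2 and 93.8. The log2 fold change was 0.23 (SE 0.188) with an adjusted p of 0.447 in edgeR's quasi-likelihood test. Scaling by total counts gave 0.005, and by the upper quartile 0.019. Xbp1 (chr11:5520659-5525893), the transcription factor activated by the endoplasmic reticulum sensor IRE1, had the same pattern in CPM. It was 61.0, 133, 80.2, 66.4 and 150 CPM with Ag and 123, 127, 117, 147 and 132 CPM with Ag+Costim. Its log2 fold change was 0.40 (SE 0.254, edgeR adjusted p = 0.351). Atf3 (chr1:191170296-191218039), a stress-induced repressor and activator, was at most 0.580 CPM in Ag+Costim. In Ag it reached 2.28 CPM in replicate 3, the library with B cell and erythroid markers, and was at most 0.561 CPM in the others. Its log2 fold change was -1.05 (SE 1.36, edgeR adjusted p = 0.627), and 0.44 without that library.

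Asns and Ddit4 differed widely among the antigen-only libraries, in opposite ways. Asns (chr6:7675169-7693254), asparagine synthetase, was 0.766, 14.3, 11.1, 0.817 and 24.1 CPM with Ag and 29.2, 21.9, 18.5, 34.4 and 27.4 CPM with Ag+Costim. Ag replicates 1 and 4 had nearly none, and 3 Ag+Costim libraries were above all Ag libraries. Ddit4 (chr10:59949669-59951834), also called REDD1, restrains the growth kinase mTORC1. It was 21.7, 4.41, 8.56, 52.2 and 5.85 CPM with Ag and 21.5, 22.7, 25.9, 17.6 and 17.6 CPM with Ag+Costim. Here replicates 1 and 4 were the highest Ag libraries and the other 3 were below all costimulated ones.

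The Asns log2 fold change was 1.36 (SE 0.802, edgeR adjusted p = 0.324), and the one of Ddit4 was 0.18 (SE 0.596, edgeR adjusted p = 0.857). The SD of log2 CPM (0.5 added) among Ag libraries was 2.03 for Asns and 1.41 for Ddit4, higher than in 99.4% and 96.8% of 8626 genes with at least 10 CPM. Among Ag+Costim libraries it was 0.346 and 0.235. Without Ag replicates 1 and 4, the log2 fold change was 0.68 for Asns and 1.77 for Ddit4, and Ddit4 and Ppp1r15a then lay above Ag without overlap, as did 6.92% of all genes tested. Without Ag replicate 5, Asns lay above Ag without overlap, as did 1904 of 27169 genes tested. The cell cycle level was low in Ag replicates 1 and 4, and more genes had a count there than in Ag replicates 2 and 5. The part of either in these values was not tested.

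**Figure D2:**
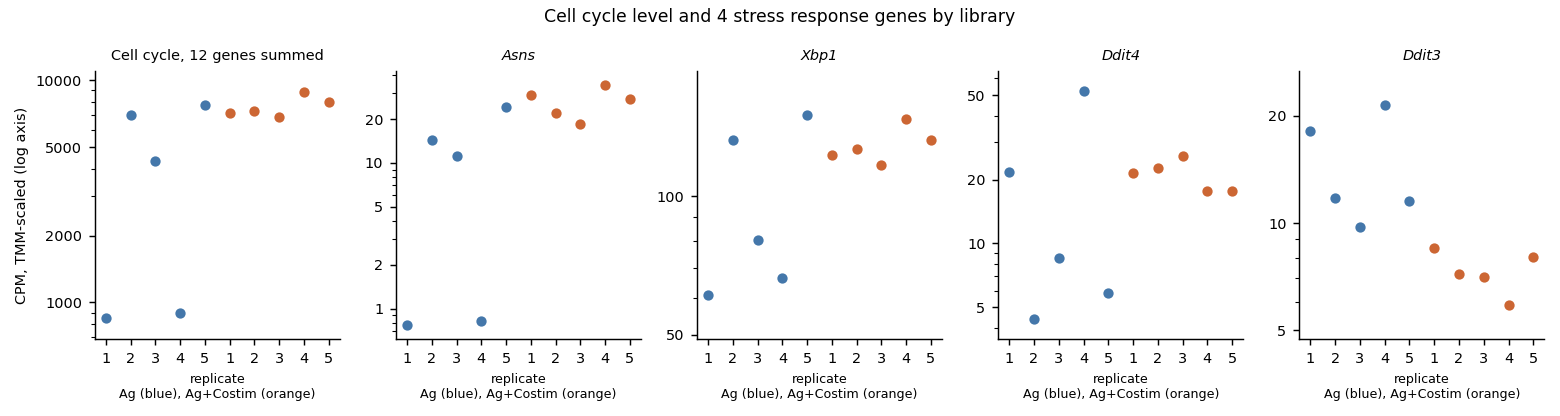
CPM on log axes (TMM-scaled) by library for the sum of 12 cell cycle genes, Asns, Xbp1, Ddit4 and Ddit3, with Ag replicates in blue and Ag+Costim replicates in orange. Ag replicates 1 and 4 are lowest for the cell cycle sum (852 and 898 CPM), Asns and Xbp1, and highest for Ddit3.

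Sesn2, Ppp1r15a, Trib3 and Chac1 complete the set, and no difference between the groups passed the test in any of them. Sesn2 (chr4:132492032-132510501), a leucine-binding brake on mTORC1, was 12.5, 21.5, 13.9, 19.2 and 31.1 CPM with Ag and 18.7, 20.7, 20.4, 23.9 and 25.3 CPM with Ag+Costim. The highest and the 2 lowest libraries were Ag libraries. Ppp1r15a (chr7:45522916-45526268) encodes GADD34, which directs a phosphatase to eIF2 and so ends the response. It was 16.4, 9.11, 10.1, 16.8 and 9.28 CPM with Ag and 13.9, 13.7, 14.7, 12.3 and 14.1 CPM with Ag+Costim. Ag replicates 1 and 4 lay above all costimulated libraries, and the other 3 lay below all of them.

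Trib3 (chr2:152337422-152344032), a pseudokinase that inhibits ATF4 and CHOP, was 3.03 to 7.94 CPM with Ag and 2.84 to 6.04 CPM with Ag+Costim. Chac1 (chr2:119351229-119354381), which degrades glutathione, was listed at 0 in Ag replicates 2 and 5 and was 1.38 CPM in Ag replicate 3. In Ag+Costim it was 0.0493 to 0.385 CPM. The log2 fold changes were 0.15 for Sesn2 (SE 0.236), 0.15 for Ppp1r15a (SE 0.207), -0.10 for Trib3 (SE 0.316) and -1.15 for Chac1 (SE 1.69). Their edgeR adjusted p values were 0.69, 0.642, 0.854 and 0.672. Signs turned under other scalings for Ddit4, Sesn2 and Ppp1r15a, and Trib3 and Chac1 turned when single libraries were left out.

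In the fit across all genes, edgeR called none of the 10 genes and none of the 24262 genes (0%) at an adjusted p under 0.05. At an unadjusted p under 0.05 there were 4501 genes, or 18.6%. DESeq2 called 16.3% of genes and 1 of the 10, Ddit3, in which nothing is read because this contrast chose it. Limma with voom and library weights called 50.7% of genes, 25.3% of all genes as higher, and 4 of the 10. These were Ddit3, again a description, and Atf4 (log2 fold change 0.47, adjusted p = 0.00603), Asns (4.64, adjusted p = 4.32e-05) and Xbp1 (0.92, adjusted p = 9.95e-05), all 3 higher. The library weights were 1.32 and 1.86 for Ag replicates 1 and 4, against 0.0985 and 0.0654 for Ag replicates 2 and 5 and 0.508 for Ag replicate 3, so these values rest mainly on the 2 Ag libraries with almost no Asns. A share of 4 in 10 was not above the background of that tool. The median log2 fold change was 0.15 over the 10 genes, 0.24 over genes with at least 10 CPM and -0.32 over all genes tested. With total counts as scaling, the median over genes with at least 10 CPM moved to 0.00 and that of the 10 genes to -0.23.

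**Figure D3:**
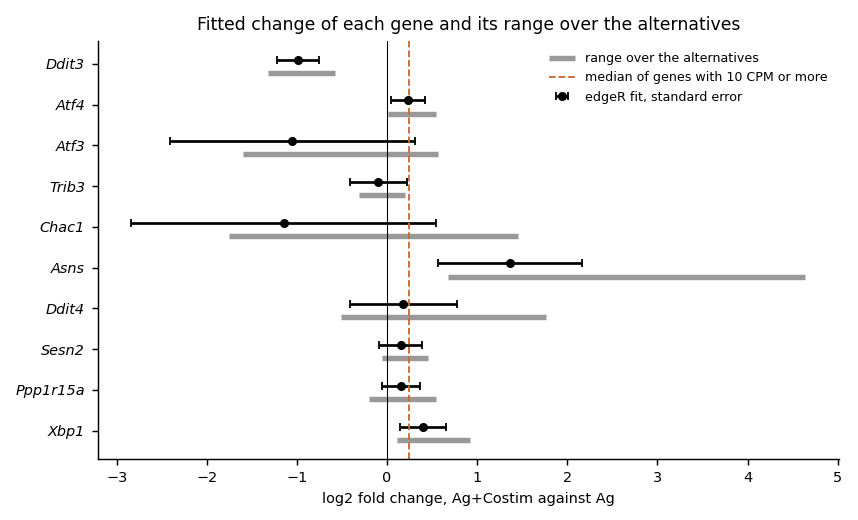
Fitted log2 fold change (horizontal axis, Ag+Costim against Ag) of the 10 genes, with black points and bars for the edgeR value and its standard error and grey bars for the range over the other fits. Ddit3, chosen for its lower level, stays below 0, and Asns and Xbp1 stay above 0 in all fits. Atf4 reaches down to 0.005 with total counts, while the other genes cross 0. The dashed line is the median of 0.24 over genes with at least 10 CPM.

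The genes around these 10 were described by lists. All 4 eIF2 kinases were higher on average in Ag+Costim, with a median log2 fold change of 0.51. Of these, 2 lay above Ag without overlap, as did 4.48% of all genes tested. Eif2ak2, the double-stranded RNA sensor PKR, was 19.5 ± 1.61 CPM with Ag and 30.3 ± 3.32 CPM with Ag+Costim (SD, n = 5). All 12 genes of eIF2, its exchange factor eIF2B and the phosphatase were higher, with a median of 0.52. The list included Eif2s1, the phosphorylated subunit, at 259 ± 151 and 420 ± 49.4 CPM (SD, n = 5). The median of the 12 genes without Ag replicates 1 and 4 was 0.17 and that of the kinases 0.39, against 0.15 for genes with at least 10 CPM, and Eif2s1 moved from 0.70 to 0.26. None of the genes in these lists passed edgeR's test over all genes.

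Targets of ATF4 were listed by role. All 12 tRNA synthetase genes were higher, with a median of 0.75, and 10 of them had an unadjusted p under 0.05, where 7.89% of all genes were higher at that level. DESeq2 called 7 of the 12, all higher, against 1.88% of 49567 genes, which were not filtered for low counts. All 12 reached 10 CPM, and genes with at least 10 CPM had a median of 0.24, against -0.32 over all genes tested. Neither share is therefore a like background, and the share among genes of like level is not given here. Iars, the isoleucyl-tRNA synthetase, was 91.2 ± 25.1 CPM with Ag and 185 ± 26.3 CPM with Ag+Costim (SD, n = 5), without overlap. Of 17 genes of amino acid synthesis and transport, 13 were higher and 4 lower (median 0.50). In this list 4 genes lay above Ag without overlap, as did 4.48% of all genes tested. Slc7a5, the large neutral amino acid transporter, was 48.6 ± 34.4 and 118 ± 13.3 CPM (SD, n = 5), without overlap. Psat1 and Shmt2, enzymes of serine and glycine synthesis, had log2 fold changes of 0.77 and 0.79. These were 0.24 and 0.31 without Ag replicates 1 and 4, and in the list then 11 genes were higher and 6 lower, with a median of 0.16 against 0.15 for genes with at least 10 CPM.

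Of the 12 genes of the later stress output, 10 were tested, with 3 higher and 7 lower (median -0.55). The median over all genes tested was -0.32. Of the 10, 4 reached 10 CPM, and the median of these was 0.26, against 0.24 for all such genes. The others were low, and Vldlr, the lipoprotein receptor, was 6.66 CPM in Ag replicate 3 and at most 0.678 CPM elsewhere. Bcl2l11, the death factor BIM that CHOP can induce, was 36.9 ± 29.6 CPM with Ag and 16.1 ± 3.57 CPM with Ag+Costim (SD, n = 5). Without Ag replicates 1 and 4, its log2 fold change moved from -1.20 to 0.04. Ero1l, an oxidase of the endoplasmic reticulum, was 46.6 ± 18.5 and 76.7 ± 9.98 CPM (SD, n = 5), above Ag without overlap. Of the 7 other brakes on mTORC1, 6 were lower (median -0.57, and -0.37 over the 5 with at least 10 CPM), with Sesn1 at 85.9 ± 62.4 and 36.7 ± 8.93 CPM (SD, n = 5). Without Ag replicates 1 and 4, 4 of the 7 were lower and the median was -0.07.

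The arms of the unfolded protein response that run beside the eIF2 kinase PERK had more higher than lower genes. All 10 genes of the ATF6 arm and its chaperones were higher, with a median of 0.64. Of these, 3 lay above Ag without overlap, as did 4.48% of all genes tested. With total counts as scaling, 9 of the 10 were higher and the median was 0.45. Hsp90b1 was 675 ± 362 CPM with Ag and 1359 ± 205 CPM with Ag+Costim (SD, n = 5). Hspa5, the chaperone BiP, was 819 ± 424 and 1354 ± 275 CPM (SD, n = 5), with overlap. Of 25 targets of XBP1, 23 were higher and 2 lower (median 0.42), and with total counts as scaling 19 were higher. None of these genes passed edgeR's test over all genes. Without Ag replicates 1 and 4 the medians were 0.31 for the ATF6 arm, 0.13 for the XBP1 targets and 0.44 for the tRNA synthetases, against 0.15 for genes with at least 10 CPM.

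**Figure D4:**
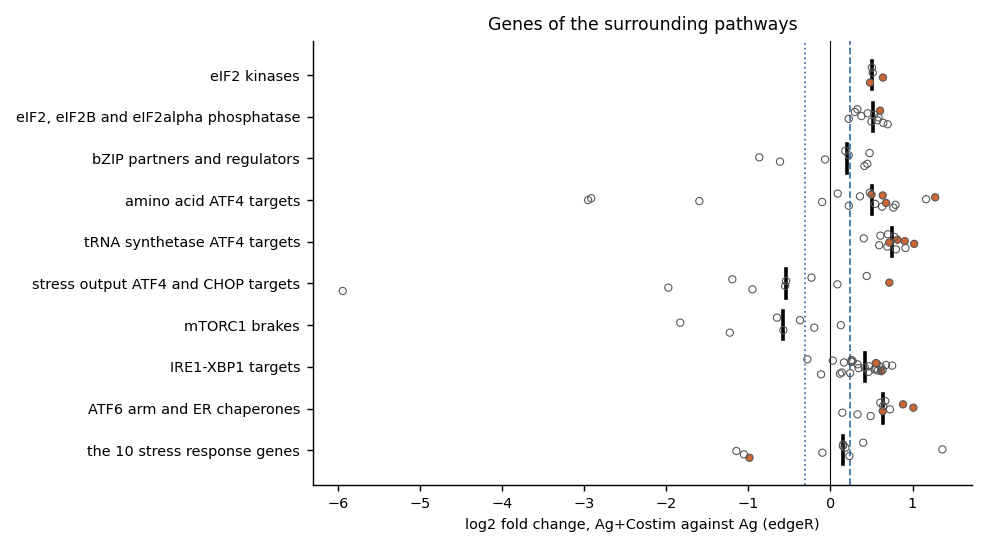
Log2 fold change (horizontal axis, Ag+Costim against Ag, edgeR) of each gene tested in 9 lists around the stress response and in the 10 genes themselves, with filled points for genes whose groups do not overlap and black bars for list medians. The tRNA synthetases (median 0.75) and ATF6 arm genes (0.64) lie right of the dashed line at 0.24, the median of genes with at least 10 CPM. The later stress output (-0.55) and mTORC1 brakes (-0.57) lie left of the dotted line at -0.32, the median of all genes tested, but the stress output genes with at least 10 CPM have a median of 0.26.

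Splicing of the 10 genes was not used to choose the set, although transcript counts sum to the gene counts that were. IRE1 activates Xbp1 by removing a short stretch of its mRNA in the cytoplasm. The 26 bases lie at chr11:5524282-5524307 on the plus strand, inside the coding exon at chr11:5524239-5524384, and are shown in capitals with 2 bases on either side.
Xbp1, chr11:5524280-5524309, plus strand: agCACTCAGACTATGTGCACCTCTGCAGca
All 3 annotated coding transcripts of Xbp1 contain this stretch, and the shortest gap between their exons is 300 bases. Counts per annotated transcript therefore do not separate spliced from unspliced Xbp1. The percent of Xbp1 counts on Xbp1-201, the main transcript, was 96.8 ± 1.57 with Ag and 96.6 ± 0.554 with Ag+Costim (SD, n = 5). The transcript with a retained intron, Xbp1-202, held 1.57 ± 0.878% and 1.76 ± 0.357% (SD, n = 5), a difference within the spread (two-sided exact permutation p = 0.683).

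In transcript usage, edgeR's diffSpliceDGE called 31 of 10441 genes (0.297%) at an adjusted p under 0.05 with a share change over 0.1. Only 4 of the 10 genes, Xbp1, Ddit3, Ppp1r15a and Atf4, had enough counted transcripts to be tested, and none was called. The adjusted p was 1 for each of the 4. Asns entered the test in 6 of the fits that left out 1 library, and without Ag replicate 5 its adjusted p was 0.0369, with a share change of 0.0414 that was under 0.1.

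The main Ddit3 transcript, Ddit3-201, has an exon 2 of 48 bases at chr10:127293712-127293759, all of it before the start codon. The last 42 of the 105 bases of an upstream reading frame of 35 codons, annotated as the separate identifier above, lie in this exon. Upstream reading frames in Ddit3 mRNA are known to restrain its translation. In the authors' splicing table, with 1 percent spliced in (PSI) value per group, inclusion of exon 2 was 0.951 with Ag and 0.865 with Ag+Costim as a fraction. Differences over 0.05 occurred in 5.50% of all core exons and in 2 of 30 core exons of the 10 genes. The other was an Atf3 exon at chr1:191177231-191177474, at 0.863 and 0.962, in a gene with few counts.

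From transcript counts, Ddit3-201 and the exon 2-skipping Ddit3-203 gave a value per library. Inclusion was 98.0, 99.7, 100, 96.7 and 99.7% with Ag and 99.7, 96.7, 97.4, 94.8 and 95.5% with Ag+Costim. Most Ag+Costim libraries were lower, and the groups overlapped. The means were 98.8 ± 1.41% and 96.8 ± 1.92% (SD, n = 5), a difference of -2.02 percentage points with a two-sided exact permutation p of 0.0794, where 0.00794 is the smallest possible. Over all libraries of a group, Ddit3-203 held 390 counts with Ag and 431 with Ag+Costim. Without Ag replicate 4 or Ag+Costim replicate 1 the exact p was 0.0397 or 0.0317. In each of the other fits that left out 1 library, the exact p was not under 0.05.

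**Figure D5:**
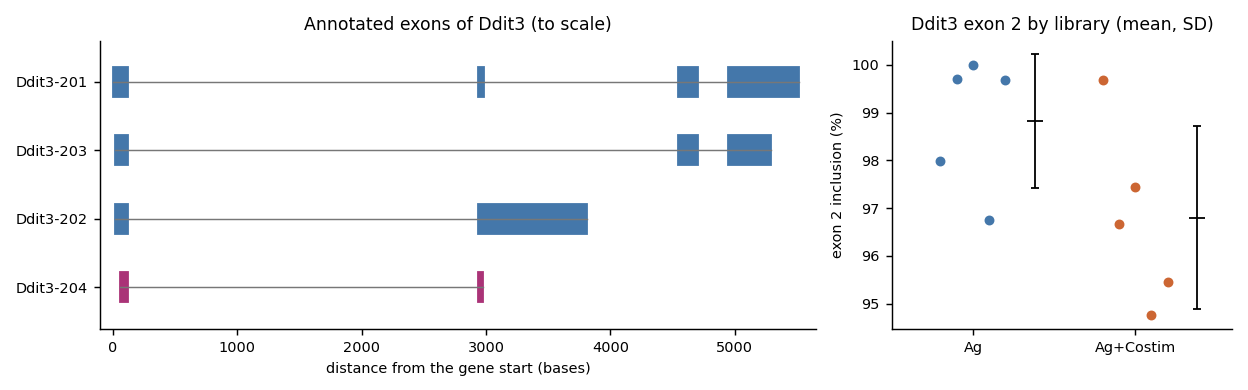
Left, annotated exons of Ddit3 transcripts by distance from the gene start in bases, with the upstream reading frame Ddit3-204 in purple. Right, percent of Ddit3-201 among Ddit3-201 and Ddit3-203 counts in each Ag (blue) and Ag+Costim (orange) library with mean and SD on an axis that does not start at 0, at 98.8% and 96.8% on average.

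Ppp1r15a had the largest PSI differences among the 10 genes, at its ends. The use of its upstream transcription start was 0.924 with Ag and 0.683 with Ag+Costim, and that of the start 122 bases further down was 0.0757 and 0.317. Differences over 0.05 occurred in 28.7% of all such start events. Its 2 alternative 3' ends differed as well, at 0.989 and 0.915 for the proximal end and 0.0111 and 0.0858 for the distal one, which is 5 bases longer. Of all end events, 43.0% differed by over 0.05. Transcript counts do not isolate the start. Ppp1r15a-201 has the upstream start, while Ppp1r15a-202 has the downstream start, keeps an intron of 603 bases and has the proximal end. The share of counts on Ppp1r15a-201 was 85.4 ± 13.3% with Ag and 90.1 ± 4.53% with Ag+Costim (SD, n = 5, two-sided exact permutation p = 0.69). Without Ag replicate 2, at 61.7%, this difference was -1.30 percentage points.

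The splicing table held 38 events in 9 of the 10 genes, with none for Chac1, and 6 (15.8%) differed by over 0.05, against 11.9% of all 138940 events. The 8 Sesn2 exons were at 0.991 to 0.996 with Ag and 0.995 to 0.998 with Ag+Costim. The single internal Atf4 exon was at 0.9996 and 0.9998. All 10 core exons of Asns were higher in Ag+Costim, at 0.936 to 0.983 with Ag and 0.970 to 0.999 with Ag+Costim, and each of these 10 differences was under 0.05. An alternative first exon of Asns at chr6:7692711-7692871 was at 0.0554 with Ag and 0.00577 with Ag+Costim, and the retained intron of Ppp1r15a was at 0.137 and 0.101. The Asns-201 transcript held 95.4 ± 4.26% of Asns counts with Ag and 99.9 ± 0.0724% with Ag+Costim (SD, n = 5), and Ag libraries with the fewest Asns counts weigh the same in that mean. Asns-205, chosen after its values were seen, held 0.112 to 6.94% with Ag, from 95 counts in all, and 0 to 0.0159% with Ag+Costim, from 2 counts. The retained intron transcript of Atf4 held 3.67 ± 2.12% and 3.47 ± 0.519% of its counts (SD, n = 5, two-sided exact permutation p = 0.81). With 1 PSI value per group, none of the PSI differences could be tested.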

How the data were processed

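Poly(A) RNA was reverse transcribed and sequenced with a SMART-Seq v4 and Nextera XT kit, which does not mark strand. The authors aligned reads to mm10 with HISAT2 2.1.0, sorted them with SAMtools 1.9 and deposited estimated counts (expected counts) per gene and transcript from StringTie 2.1.0, which are rounded, not normalized and not numbers of reads. The authors also deposited a Whippet table with 1 PSI fraction per event and group. The deposited table also holds Whippet scores by the authors (the difference between groups, its probability and an entropy score), which were not used. All 55536 gene and 141862 transcript identifiers matched GENCODE M21. Entries with no gene identifier held 0.0458% to 0.308% of a library's total and were left out, as were 97 spike-in entries at 0.

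The 2 groups were compared per gene by the quasi-likelihood test of edgeR 4.0.16 in R 4.3.3 (filterByExpr, TMM factors, no covariates), with Benjamini-Hochberg adjustment over all genes tested. DESeq2 1.42.0 and limma 3.58.1 (voom with library weights), other scalings, no filter, the replicate block and leaving out libraries were alternatives. Transcript usage was tested with edgeR's diffSpliceDGE. Exact permutation tests used all assignments of libraries to groups, 252 with 10 libraries and 126 with 9. The gene-level and transcript usage tests were run on simulated data. The gene-level simulation took its spread from the Ag+Costim libraries alone. Their median SD of log2 CPM was 0.121, against 0.463 in Ag, so it does not match the spread among Ag libraries. TPM were computed from transcript counts and lengths.

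The 10 genes and the gene lists were chosen with earlier results of these data known. Named beside the 10 were up to 3 genes per list with the largest log2 fold change among those with at least 10 CPM in the higher group, of which a part is printed, and the 5 genes most like Ddit3. The cell cycle list and the fits without Ag replicates 1 and 4 were added after seeing the data.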

Additional observations from a re-analysis of the deposited data

Results flagged for a closer look

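In 28 groups of 5 values (10 genes and 4 transcript shares, in Ag and in Ag+Costim), the gap between an extreme library and its neighbour was compared with the whole range, and 3 libraries stood apart. By chance about 1 in 20 groups would be marked. Atf3 was 2.28 CPM in Ag replicate 3 and at most 0.561 CPM in the other Ag libraries. Chac1 was 1.38 CPM in the same library and at most 0.303 CPM in the others. This library had the lowest total and the highest B cell and erythroid marker sums of the 10, and the part of these in the 2 values was not tested. The share of Ppp1r15a counts on Ppp1r15a-201 was 61.7% in Ag replicate 2, and the next lowest Ag library was at 89.8%.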

How the results depend on the processing

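At the gene level, edgeR called 0 genes and 0 of the 10 in every scaling, filter, block and set of libraries run, while DESeq2 called 8064 genes and 1 of the 10 and limma with library weights 12311 genes and 4 of the 10. Of the 10 genes, 1 did not overlap in the main setting and with every scaling and TPM. This was Ddit3, whose lack of overlap chose the set. Before scaling, the estimated counts of Ddit3 overlapped, at 694 to 8180 with Ag and 2149 to 4115 with Ag+Costim. Those of Asns then lay above Ag without overlap. The share of all genes without overlap before scaling is not given here. With single libraries left out the number was 1 to 2 (2 without Ag replicate 5, Asns being added). Without Ag replicates 1 and 4 it was 3. Of all 24262 genes tested, 1086 lay above Ag and 273 below in the main setting. Without Ag replicate 5 these were 1904 and 1626 of 27169, and without Ag replicates 1 and 4 they were 1747 and 639 of 25237. Transcript usage calls were 31 genes, 145 with limma's diffSplice, 19 with at least 50 counts in 5 libraries and 33 to 92 when single libraries were left out, with 0 of the 10 in each, Asns passing only the adjusted p without Ag replicate 5. Same-numbered libraries did not deviate together (r from -0.44 to 0.21 over 5 numbers). That cannot settle whether they were handled in pairs, which the labels do not say. The replicate block called 0 genes by level and 30 by usage.

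The Ddit3 log2 fold change stayed below 0 in all 18 alternatives, between -1.33 and -0.58. The rule that chose Ddit3 all but fixed this sign, so it is a description. Signs turned for genes not past edgeR's threshold, and the cause was not tested. With limma and library weights, Atf3 was 0.56, Trib3 0.018, Chac1 0.059, Ddit4 -0.51 and Ppp1r15a -0.19. With DESeq2 size factors Ddit4 was -0.015 and Ppp1r15a -0.011. With total counts Ddit4 was -0.25, Sesn2 -0.058, Ppp1r15a -0.20 and Nfe2l2 -0.089, and with the upper quartile -0.12, -0.055, -0.12 and -0.050. With no filter Trib3 was 0.18, and with the block Atf3 was 0.095 and Chac1 1.45. Leaving out single libraries gave -1.39 to 0.44 for Atf3, -0.24 to 0.20 for Trib3, -1.75 to 0.77 for Chac1 and -0.041 to 1.06 for Ddit4. Without Ag replicates 1 and 4, Sesn2 was -0.015, Bcl2l11 0.039 and Sesn3 0.26.

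The Ddit3 exon 2 difference was -2.92 percentage points per transcript length and -2.74 to -1.51 when single libraries were left out. That of Ppp1r15a ranged from -1.30 to 6.49, that of the Atf4 retained intron from -0.88 to 0.57 and that of the Xbp1 retained intron from -0.069 to 0.42. The planned Xbp1 spliced share was not run, since no annotated transcript lacks the stretch that IRE1 removes, and PSI values had no libraries to leave out. Estimated counts limit the precision of rare transcripts and of Atf3 and Chac1 in a way these files do not show.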
